A study of Mus musculus with 9 samples.

Results

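Steroid hormone receptors are nuclear receptors: each binds its hormone in the cell and then acts on DNA as a transcription factor. In the absence of hormone they are held in a binding-competent form by HSP90, HSP70 and their co-chaperones, the same proteins that cells make in quantity after heat. Peritubular myoid cells, the contractile cells around the seminiferous tubules of the testis, are known as steroid-responsive cells that support spermatogenesis. The glucocorticoid receptor is present in most cell types and switches on a set of well-known target genes.

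The results below concern 9 genes chosen by name from the 20717 listed in the deposited table. Among them, 4 encode steroid receptors: Esr1 (estrogen receptor alpha), Pgr (progesterone receptor), Nr3c1 (glucocorticoid receptor) and Nr3c2 (mineralocorticoid receptor). Another 2, Nr2f1 and Nr2f2, encode the COUP-TF orphan receptors, which are active without a known hormone of their own. The other 3 are genes that glucocorticoids are known to induce. Tsc22d3 encodes GILZ, an anti-inflammatory leucine zipper protein, Sgk1 encodes a serum- and glucocorticoid-regulated kinase, and Zbtb16 encodes the zinc-finger repressor PLZF. All 9 had values in all libraries. On mm10, Sgk1 lies at chr10:21882184-21999903 and Esr1 at chr10:4611989-5005633, both on the plus strand. Pgr (chr9:8899833-8968611) and Nr3c2 (chr8:76902508-77243639) are on the plus strand too. The minus strand holds Zbtb16 (chr9:48654297-48835945), Tsc22d3 (chrX:140539528-140600522), Nr2f1 (chr13:78188973-78198982), Nr2f2 (chr7:70351950-70366746) and, on chromosome 18, Nr3c1.

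RNA came from primary cultures of testicular peritubular myoid cells of C57BL/6J mice, whose age is not given in the labels. The untreated control group stayed in culture at 37 °C. Dishes of the other groups spent 30 min in a water bath at 42 °C and were collected 1 h or 6 h after heat. Each of the 3 groups has 3 libraries, numbered in the labels but not tied to separate animals or cultures. Every p-value therefore speaks only of library-to-library spread, part or all of which may be technical. No hormone was named in the labels, and the culture medium held fetal bovine serum in every group.

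Levels are in FPKM, a unit that corrects fragment numbers for the length of the transcript and for sequencing depth. Estimated depth was 18950000 to 19800000 reads per library. The contractile genes Tagln and Acta2, which mark myoid cells, stood at 1602 to 2231 and 992 to 1627 FPKM over the 9 libraries. Transcripts of other testicular cell types were present as well. Macrophage markers, 9 in all and led by Lyz2 and Cd68, summed to 54.5 to 92.7 FPKM in control. They summed to 58.6 to 277 FPKM at 1 h and 45.2 to 282 FPKM at 6 h. The summed level of 9 Leydig markers, led by Insl3 and Cyp11a1, was 905 to 2184 FPKM, while Cyp17a1, Hsd17b3 and Lhcgr of the same list did not exceed 0.11, 0.12 and 0.27 FPKM. Control replicate 3 stood apart by its Sertoli markers: 10 markers, led by Clu and Ctsl, summed to 3970 FPKM there and to 471 to 801 FPKM in the other 8 libraries. All 10 had their highest value there, among them Cldn11 at 237 FPKM, Wt1 at 53.8, Sox9 at 27.7, Dhh at 7.18 and Gata1 at 6.27 FPKM, with Amh and Fshr at only 0.26 and 0.09 FPKM. In bulk RNA, fewer cells of a type and less RNA per cell cannot be told apart.

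Start-site sequences are shown first for the glucocorticoid targets, because one of them holds a rare match to the element that the receptor is known to bind. RefSeq windows on GRCm38.p6, the assembly that mm10 corresponds to, were searched on both strands over 250 bases before to 50 bases after each start site. Windows were at hand for 7 of the 9 genes, Nr3c1 and Zbtb16 being without one. The full glucocorticoid element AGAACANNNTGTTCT was found in 3 of 32851 such windows genome-wide, 0.01% of them, and 1 of the 3 belongs to Sgk1. That match lies at chr10:21993701-21993715, within the Sgk1 gene, 189 bases before start site 5 of 6 in RefSeq order and 965 bases before start site 6. Both windows are printed below, 5′ to 3′ on the plus strand, with a Tsc22d3 window on the minus strand that holds a single arm of the element. Capitals mark matches to either arm, AGAACA or TGTTCT, and to the whole element.
Sgk1, start site 5, chr10:21993640-21993939: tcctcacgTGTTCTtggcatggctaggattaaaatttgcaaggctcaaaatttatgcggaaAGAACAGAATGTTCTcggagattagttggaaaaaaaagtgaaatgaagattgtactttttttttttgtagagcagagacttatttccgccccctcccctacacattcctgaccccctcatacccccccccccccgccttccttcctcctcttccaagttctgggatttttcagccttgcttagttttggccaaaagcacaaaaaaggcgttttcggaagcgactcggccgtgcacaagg
Sgk1, start site 6, chr10:21994416-21994715: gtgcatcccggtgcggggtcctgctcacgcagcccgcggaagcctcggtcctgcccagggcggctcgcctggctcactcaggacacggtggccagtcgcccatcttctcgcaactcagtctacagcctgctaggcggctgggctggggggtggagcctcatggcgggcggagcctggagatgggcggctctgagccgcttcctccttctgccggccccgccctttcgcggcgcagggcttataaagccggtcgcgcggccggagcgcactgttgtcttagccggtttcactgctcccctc
Tsc22d3, chrX:140600473-140600772: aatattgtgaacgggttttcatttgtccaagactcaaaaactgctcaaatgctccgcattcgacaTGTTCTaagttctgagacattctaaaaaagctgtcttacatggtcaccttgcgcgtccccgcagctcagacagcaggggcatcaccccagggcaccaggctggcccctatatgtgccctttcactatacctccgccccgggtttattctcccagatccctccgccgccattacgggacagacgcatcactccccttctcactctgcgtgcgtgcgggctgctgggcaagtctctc

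Single matches are common and say less. AGAACA on either strand was found in 18.97% of all windows. The heat-shock pair GAANNTTC was found in 7.86% and the nuclear receptor hexamer AGGTCA in 16.26%. At Sgk1, the window of start site 5 has a GAANNTTC match that overlaps the full glucocorticoid element, and that of start site 3 has both GAANNTTC and AGGTCA. The window of start site 2 has AGGTCA, and those of start sites 1 and 4 each have a single arm of the glucocorticoid element. The Nr3c2 window has a GAANNTTC match, 151 bases before its start site. The Esr1, Pgr, Nr2f1 and Nr2f2 windows held none of the 4 motifs, which says only that these letters are not in these windows. The table gives 1 level per gene, so the 6 Sgk1 start sites were not measured apart.

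In untreated cells the levels spanned a wide range (the plot of levels by library). Sgk1 had the highest mean, 68.3 ± 25.8 FPKM (SD, n = 3), and was followed by Nr2f2 at 35.3 ± 4.95 FPKM. Their ranges overlapped, because control replicate 3 held only 38.5 FPKM of Sgk1. Nr3c1 came next at 13.7 ± 2.21 FPKM, apart from its neighbours on both sides. It was the most abundant of the 4 steroid receptors, with a mean above those of 70.8% of the genes with values. Tsc22d3 at 5.66 ± 0.0794 FPKM and Esr1 at 5.02 ± 2.74 FPKM overlapped. Nr2f1 stood at 1.36 ± 0.195 FPKM, Pgr at 0.767 ± 0.125 and Zbtb16 at 0.707 ± 0.258, of which Pgr and Zbtb16 overlapped. Nr3c2 was lowest, at 0.203 ± 0.0924 FPKM.

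**Figure D1:**
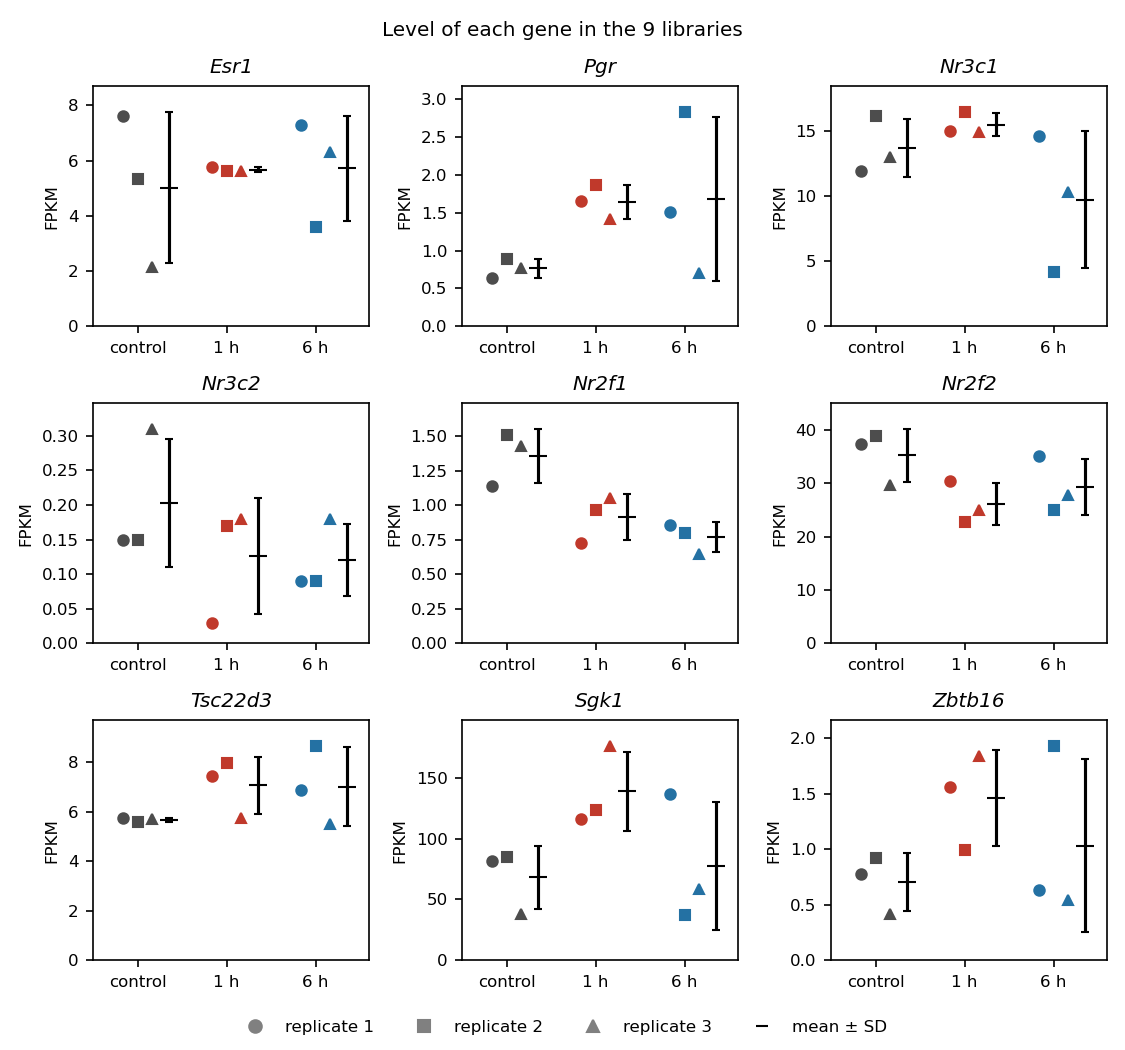
Level of the 9 genes in FPKM (vertical axes, each from 0) in control cells and at 1 h and 6 h after heat, with 1 point per library and the mean ± SD of 3 libraries beside it. Sgk1, Pgr, Tsc22d3 and Zbtb16 lie above all controls at 1 h, and 6 h replicate 2 (square) is far from the other 6 h libraries for Nr3c1, Pgr and Zbtb16.

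The first comparison asked which of these genes differed from control 1 h after heat. Of the 9, Sgk1, Pgr, Zbtb16 and Tsc22d3 were above all controls in all 3 libraries, Nr2f1 was below, and none passed the test over all genes. Genes reaching 1 FPKM in 3 or more libraries were tested, which took in 8 of the 9, all but Nr3c2. Over the 11460 genes tested, 4.49% lay above all controls and 21.4% below, with a median log2 change of -0.168. This background depends on the scaling: it was 9.03% above and 7.02% below after median-of-ratios scaling, and 7.57% and 10.1% after quantile normalization. After either scaling 5 of the 8 were above all controls, Nr3c1 being the added one, and 0 below. The limma test called 0 of the 8 at an adjusted p below 0.05, beside 18 genes or 0.157% of all tested. At an unadjusted p below 0.05 there were 2, Sgk1 higher and Nr2f2 lower, beside 2.76% of all genes higher and 8.05% lower, 10.8% together. Pgr and Zbtb16 passed the filter through heated libraries alone, and Nr2f1 through its 3 controls and 1 h replicate 3. Their place among the genes tested is therefore not independent of the groups where they are high.

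Sgk1 showed the largest difference in level. It stood at 81.7, 84.7 and 38.5 FPKM in control replicates 1, 2 and 3 and at 116, 124 and 176 FPKM in the 1 h libraries. The groups did not overlap, and the mean at 1 h was 2.03 times that of control. Its log2 change was 1.07 (SE 0.459, 95% interval 0.04 to 2.10), with a limma adjusted p of 0.455. Without control replicate 3 the change was 0.71 on the log2 scale. Sertoli markers were high in that control replicate, and their part in its low Sgk1 was not tested. In the authors' deposited table the log2 fold change of Sgk1 is 1.01 with a q-value listed as 0.

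Zbtb16 and Pgr were low-level transcripts with about the same ratio. Zbtb16 was 0.78, 0.92 and 0.42 FPKM in control and 1.56, 0.99 and 1.84 FPKM at 1 h. All 1 h libraries were above all controls, the nearest by a small margin. Its log2 change of 0.53 (SE 0.271, limma adjusted p = 0.502) is on the log2(FPKM + 1) scale, which understates low genes. The ratio of means was 2.07. In testis Zbtb16 is known from undifferentiated spermatogonia, and 6 germ-cell markers, led by Ddx4 and Sycp3, summed to 1.11 to 1.98 FPKM in control and to 1.90 to 8.30 FPKM at 1 h. Dazl did not exceed 0.11 FPKM in any library. The highest germ-cell sum was in 1 h replicate 2, where Zbtb16 was lowest of that group, and Ddx4 made up 7.14 FPKM of it. The next highest sum, 4.89 FPKM, was in 6 h replicate 2, where Zbtb16 was highest of all 9 libraries. Ddx4 made up 4.42 FPKM of that sum. Sycp3 was only 0.44 FPKM in 1 h replicate 2 and 0.29 FPKM in 6 h replicate 2, so both sums rest mainly on Ddx4. Neither the part of the germ-cell markers in the level of Zbtb16, nor that of the stromal markers given next, was tested.

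Pgr was 0.64, 0.89 and 0.77 FPKM in control and 1.66, 1.86 and 1.41 FPKM at 1 h, with an estimated 84 to 118 reads against 186 to 246. Here too the groups were apart, with a ratio of means of 2.14 and a log2 change of 0.58 (SE 0.266, limma adjusted p = 0.478). The summed level of fibroblast and testicular stroma markers was also higher in all 1 h libraries than in any control, as Pgr, Zbtb16 and Tsc22d3 were. The 7 genes, led by Col1a2 and Col1a1, summed to 868 to 1318 FPKM in control and 1673 to 2135 FPKM at 1 h. Among them Pdgfra overlapped, at 33.85, 46.0 and 19.06 FPKM in control and 62.0, 40.02 and 29.8 FPKM at 1 h. Col1a1 overlapped narrowly, and every other gene of the list was apart. At 6 h the sums were 1732, 2729 and 975 FPKM in replicates 1, 2 and 3. Their part in the level of Pgr or Tsc22d3 was not tested. In the authors' deposited table Pgr has a log2 fold change of 1.10 (q-value 1.68e-29) and Zbtb16 one of 1.05 (q-value 1.25e-18). These q-values do not set the genes apart. The authors' q-value is below 0.05 for all the receptor and glucocorticoid target genes chosen by name, at 1 h and at 6 h against control. At 1 h it is 0.000146 for Esr1, 0.0162 for Nr3c2 and 4.43e-74 for Nr2f2, genes whose 1 h and control libraries overlapped. That table does not record how replicates entered its test.

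Tsc22d3 was the least variable gene of the 9 in control, at 5.72, 5.57 and 5.69 FPKM, a spread lower than that of all but 0.4% of the genes tested. At 1 h it was 7.45, 7.96 and 5.75 FPKM. The third library barely cleared the controls. The log2 change was 0.26 (SE 0.184, 95% interval -0.15 to 0.68, limma adjusted p = 0.573), and 0.42 after median-of-ratios scaling.

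Both COUP-TF genes had lower means at 1 h. Nr2f2 was 37.4, 38.8 and 29.7 FPKM in control and 30.5, 22.8 and 25.0 FPKM at 1 h, overlapping only through control replicate 3. Its log2 change was -0.42 (SE 0.180, limma adjusted p = 0.452), beside -0.168 for the median gene. After median-of-ratios scaling it was -0.25 (SE 0.183, adjusted p = 0.915). Nr2f1 was 1.14, 1.51 and 1.43 FPKM in control and 0.73, 0.97 and 1.05 FPKM at 1 h, a log2 change of -0.30 (SE 0.156, limma adjusted p = 0.503). The Nr2f1 groups were apart as deposited and overlapped after median-of-ratios scaling, which brought the median change of all genes to -0.013. Nr2f2 is also known from venous endothelium, and 6 endothelial markers, led by Cdh5 and Emcn, summed to 39.2 to 86.9 FPKM in control and 28.5 to 53.6 FPKM at 1 h. Their part in the lower Nr2f2 was not tested. Each of the 2 genes overlaps an annotated transcript on the opposite strand, A830082K12Rik for Nr2f1 and B130024G19Rik for Nr2f2. The strand setting of the libraries is not given in the sources used here, so reads of the partners cannot be told apart.

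The differences of the other steroid receptors at 1 h were within the spread between libraries. Nr3c1 was 11.9, 16.2 and 13.0 FPKM in control and 15.0, 16.5 and 14.9 FPKM at 1 h, a log2 change of 0.18 (SE 0.34, limma adjusted p = 0.817). The 95% interval, -0.59 to 0.94, leaves room for a change in either direction. After median-of-ratios scaling its 1 h libraries were above all controls, at a mean of 16.5 against 12.9 scaled FPKM. Esr1 was 7.60, 5.33 and 2.14 FPKM in control, a range that included all 1 h values of 5.77, 5.63 and 5.62 FPKM. Its log2 change was 0.27 (limma adjusted p = 0.734) and -0.15 without control replicate 3. Nr3c2 was 0.15, 0.15 and 0.31 FPKM in control, 0.03, 0.17 and 0.18 FPKM at 1 h and 0.09, 0.09 and 0.18 FPKM at 6 h. These values correspond to an estimated 2 to 24 reads per library, and no difference was detectable at this depth (limma without a filter, adjusted p 0.658 at 1 h and 0.865 at 6 h).

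**Figure D2:**
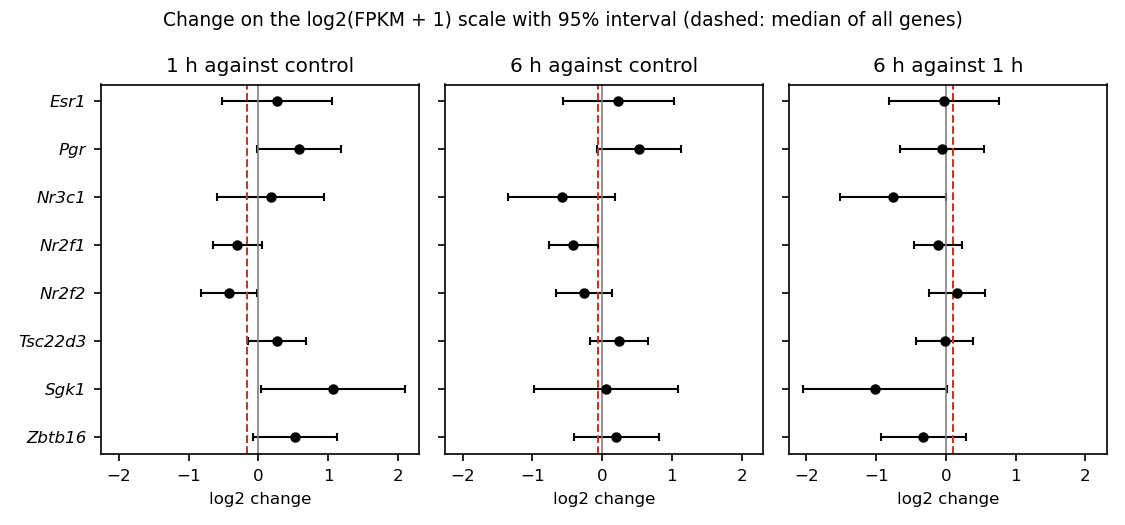
Change of the 8 tested genes on the log2(FPKM + 1) scale (horizontal axes) with 95% intervals from limma, in 3 panels for the 3 comparisons, where the dashed line is the median of all 11460 genes tested. The interval of Sgk1 at 1 h reaches from 0.04 to 2.10, and none of the genes passed the threshold after adjustment.

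The second comparison set 6 h against control. Nr2f1 was the only one of the 9 whose libraries were apart from control, at 0.86, 0.80 and 0.65 FPKM, all below the lowest control of 1.14 FPKM. Over all genes tested 1.89% lay above all controls and 5.32% below. Its log2 change was -0.41 (SE 0.156, 95% interval -0.76 to -0.06, limma adjusted p = 0.877). It was tested only because its controls exceed 1 FPKM, so this difference is in part built into the filter. The groups stayed apart after median-of-ratios scaling and after quantile normalization. Limma called 0 of the 8, as it called 0% of all genes, and 1 of the 8, Nr2f1, was lower at an unadjusted p below 0.05, beside 3.35% of all genes lower and 1.27% higher, 4.62% together.

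The 6 h libraries of the other genes overlapped with control. Sgk1 was 137, 36.9 and 58.7 FPKM in 6 h replicates 1, 2 and 3, which span the control range on both sides (log2 change 0.05, SE 0.459, limma adjusted p = 0.991). The direction turned to -0.31 without control replicate 3 and to -0.46 without 6 h replicate 1. Its spread of 0.945 on the log2 scale was above that of 96.8% of genes in the group. Nr3c1 was 14.6, 4.21 and 10.35 FPKM, so that replicate 1 was among the controls and the other 2 below them, with a log2 change of -0.58 (SE 0.34, limma adjusted p = 0.877). Without replicate 2 the change was -0.13, and without replicate 1 it was -0.92. Esr1 was 7.28, 3.60 and 6.29 FPKM, within the control range in each library, with a log2 change of 0.23 that was -0.18 without control replicate 3.

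The remaining 4 genes followed no common course. Pgr was 1.51, 2.83 and 0.70 FPKM at 6 h, replicates 1 and 2 above all controls and replicate 3 among them (log2 change 0.53, SE 0.266, limma adjusted p = 0.877). The change was 0.23 without replicate 2 and 0.81 without replicate 3. Zbtb16 was 0.63, 1.93 and 0.54 FPKM, so only replicate 2 was above control. Its log2 change of 0.20 became -0.10 without that library. Tsc22d3 was 6.85, 8.65 and 5.48 FPKM, with replicate 3 just below all controls (log2 change 0.24, SE 0.184, and 0.10 without replicate 2 or 0.39 without replicate 3). Nr2f2 was 35.1, 25.0 and 27.8 FPKM, 2 of the 3 below all controls. Its log2 change of -0.26 (SE 0.180) was -0.40 without replicate 1 and -0.16 without replicate 2.

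The third comparison tested 6 h against 1 h directly. Nr3c1 was the one gene of the 9 whose groups were apart, each 6 h library lying below the lowest 1 h value of 14.9 FPKM, with replicate 1 close to it at 14.6 FPKM. Over all genes 15.2% lay above and 4.97% below, and 9.0% and 9.09% after median-of-ratios scaling, under which Nr3c1 was still apart. Its log2 change was -0.76 (SE 0.34, 95% interval -1.52 to 0.01, limma adjusted p = 0.433), and -0.31 without 6 h replicate 2. Sgk1 had a log2 change of -1.02 (SE 0.459, limma adjusted p = 0.436), its 6 h replicate 1 lying within the 1 h range. Its change was -1.53 without that library and -0.60 without 6 h replicate 2. Zbtb16 had a log2 change of -0.33 (SE 0.271), which was -0.62 without 6 h replicate 2 and -0.16 without 6 h replicate 3. Those of Pgr, Tsc22d3 and Esr1 were -0.06, -0.02 and -0.03. Nr2f2 had a log2 change of 0.16 and Nr2f1 one of -0.11. None of the 8 passed the limma test, beside 0.279% of all genes, and none had an unadjusted p below 0.05, beside 8.45% of all genes higher and 3.19% lower, 11.6% together. This comparison shares its 1 h libraries with the first and its 6 h libraries with the second.

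For some of the genes, 6 h replicate 2 and control replicate 3 stood far from the others of their group (the map of deviations from each gene's mean). How the variation divided between libraries and groups was not measured. In 6 h replicate 2, Nr3c1 was 0.337 times the mean of the other 2 libraries of its group, Sgk1 0.378 times and Esr1 0.531 times. In the same library Zbtb16 was 3.30 times and Pgr 2.56 times that mean, and Tsc22d3 had its highest value of all 9 libraries. The glucocorticoid receptor transcript was lowest where 2 of its 3 listed targets, Tsc22d3 and Zbtb16, were highest. The sum of the stromal markers was also highest there, at 2729 FPKM. The sum of the 7 myoid markers was lowest, at 3256 FPKM against 3516 to 4886 FPKM elsewhere. Single markers departed from these sums: Acta2, Actg2 and Myl9 were lower in another library, and Pdgfra was higher in others. The part of either marker set in these values was not tested. In control replicate 3, Esr1 was 0.331, Sgk1 0.463 and Zbtb16 0.494 times the mean of the other 2 controls, while Pgr and Tsc22d3 lay within their range.

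**Figure D3:**
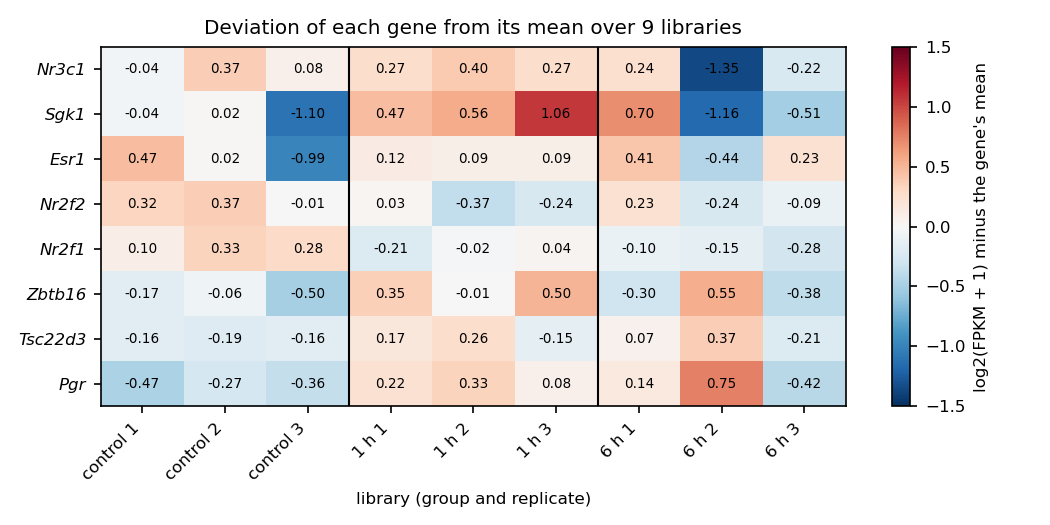
Deviation of log2(FPKM + 1) from each gene's mean over 9 libraries (colour, with the value in each cell) for the 8 tested genes (rows) in each library (columns, grouped by vertical lines). In 6 h replicate 2, Nr3c1, Sgk1 and Esr1 are low while Zbtb16, Tsc22d3 and Pgr are high.

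Pairs of the 8 genes were also compared over the 9 libraries, as a description, since the libraries share groups and composition. Pgr and Tsc22d3 were most alike, with a Pearson r of 0.921 over the 9 libraries on the log2 scale and 0.867 without 6 h replicate 2. Pgr and Zbtb16 had an r of 0.728. The receptor Nr3c1 had an r of 0.698 with Sgk1, -0.413 with Tsc22d3 and -0.329 with Zbtb16. Both negative values rested on 6 h replicate 2, without which the 3 were 0.601, 0.571 and 0.533. Esr1 and Pgr, the latter a known estrogen target in other tissues, had an r of -0.114, which was -0.713 without control replicate 3 and 0.197 without 6 h replicate 2.

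The genes most like each of these were then sought among 4478 tested genes whose lowest and highest libraries differed by at least 1 on the log2 scale. The highest r of so many genes over 9 libraries in 3 groups is high by selection, here and for the genes below. The 3 nearest to Sgk1 were Ereg, an EGF-family ligand, Fosb, an AP-1 subunit, and Nr4a1, an immediate early nuclear receptor, with r of 0.965, 0.955 and 0.950. Nr4a1 was 33.0 to 124 FPKM in control, 337 to 536 FPKM at 1 h and 22.7 to 204 FPKM at 6 h, its highest 6 h value being in replicate 1, as for Sgk1. Leaving out any library left the r of these 3 at 0.933 or more. That does not test the likeness, because the 3 were picked with all 9 libraries and the search was not repeated.

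The 3 nearest to Zbtb16 were Mt2, a metallothionein, Icosl, a costimulatory ligand, and Glul, glutamine synthetase (r of 0.961, 0.961 and 0.949). Mt2 and Glul both stand on a separate list of glucocorticoid-responsive genes, which was chosen with earlier results of these data known. The share of that list among the genes compared was not counted, so nothing is concluded from this. Mt2 was 579, 537 and 292 FPKM in control, 775, 594 and 1243 FPKM at 1 h and 508, 1407 and 426 FPKM at 6 h. Its highest libraries, 6 h replicate 2 and 1 h replicate 3, were also the highest of Zbtb16. Without 6 h replicate 2 the r with Mt2 was 0.948 and with Glul 0.929.

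Nearest to Pgr were Vill, a villin-like actin-binding protein, Pycard, an inflammasome adaptor, and Dcn, the matrix proteoglycan decorin of fibroblasts (r of 0.974, 0.970 and 0.952). Dcn was 46.7 to 66.4 FPKM in control, 153 to 246 FPKM at 1 h and 139, 350 and 55.4 FPKM at 6 h. Nr3c1 was most like Gpbp1, Chd1 and Atf1, with r of 0.989, 0.985 and 0.984. Chd1, a chromatin remodeller, was 2.50 FPKM in 6 h replicate 2 and 6.29 to 9.03 FPKM elsewhere, and without that library the 3 r values were 0.922, 0.896 and 0.883. Pgr itself was the second nearest gene to Tsc22d3, after Ang, the ribonuclease angiogenin (r of 0.928). Esr1 was nearest to Gml2, and Nr2f1 and Nr2f2 were nearest to Gucy1a2 and Stc1, at r of 0.964, 0.928 and 0.894.

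**Figure D4:**
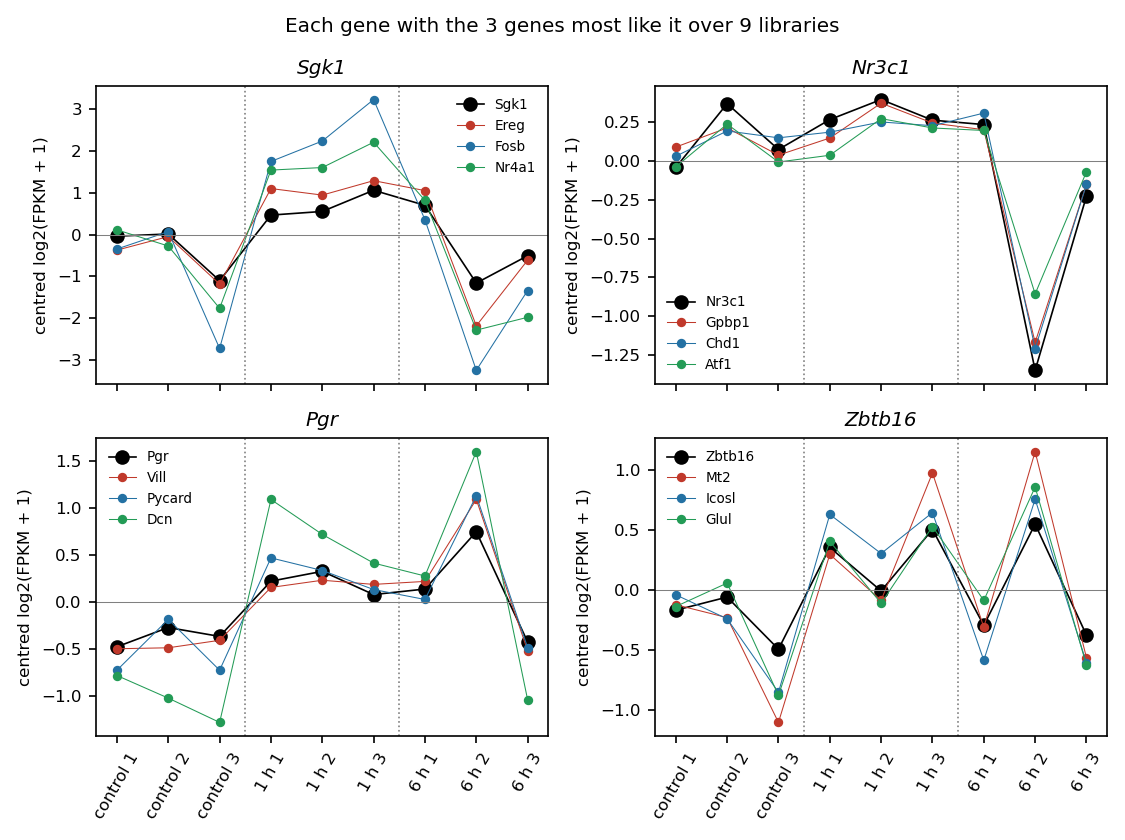
Centred log2(FPKM + 1) of Sgk1, Nr3c1, Pgr and Zbtb16 (large black points) and of the 3 genes most like each (coloured points) in the 9 libraries, where thin lines only join points of a gene and replicates have no order. Nr3c1 and its nearest genes differ mainly in 6 h replicate 2, and Zbtb16, Mt2 and Glul are high in 1 h replicate 3 and 6 h replicate 2.

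Among the lists of related genes, calls were found only for the chaperones. Of 17 chaperones and co-chaperones of steroid receptors, all tested, 2 were higher at 1 h and 0 lower, beside 0.157% of all genes called, and the same 2 were lower at 6 h than at 1 h, beside 0.279%. Dnajb1, an HSP40 co-chaperone, went from 23.2 to 546 FPKM (log2 change 4.49, SE 0.225, limma adjusted p = 1.51e-05). Dnaja1, another HSP40, went from 121 to 507 FPKM (log2 change 2.07, SE 0.237, limma adjusted p = 0.0105). At an unadjusted limma p below 0.05, 5 of the 17 were higher at 1 h and 0 lower, beside 2.76% and 8.05% of all genes. Among those not called, Hsp90aa1 went from 368 to 1325 FPKM and Hsp90ab1 from 750 to 1301 FPKM. Hspa8, of the HSP70 family, went from 1476 to 3320 FPKM. The list's median log2 change at 1 h was only 0.09, beside -0.168 for all genes, with 11 of the 17 above 0 and 6 below.

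Other genes known to respond to glucocorticoids were not called. Of 26 tested, 0 passed the limma test in any comparison, beside 0.157% of all genes called at 1 h. At an unadjusted p below 0.05, 3 were higher and 1 lower at 1 h, beside 2.76% and 8.05% of all genes. Their median log2 change was 0.33 at 1 h and 0.19 at 6 h, beside -0.168 and -0.06 for all genes. The list was not uniform: 17 were above 0 and 9 below, at 1 h as at 6 h. The 3 higher at an unadjusted limma p below 0.05 at 1 h were Gadd45g (1.985), Errfi1 (1.67) and Cebpb (0.94). The 1 lower was Sesn1 (-0.46). Also lower at 1 h, without reaching that threshold, were Fkbp5 (-0.28), Per1 (-0.46) and Klf9 (-0.27). At 6 h Klf9 had a log2 change of -0.80 (limma adjusted p = 0.877).

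None of 25 other nuclear receptors tested, of 41 listed, was called in any comparison, and their median log2 change at 1 h was -0.17, as for all genes. The highest, Nr4a1, had a log2 change of 2.43 at 1 h (SE 0.768, limma adjusted p = 0.369). Coregulators of nuclear receptors, 14 tested, had no call either, with a median of -0.11 at 1 h and -0.27 at 6 h, beside -0.168 and -0.06 for all genes. Tbl1x, a corepressor subunit and their most abundant member, had a log2 change of 0.14 at 1 h. Among 7 steroid-converting enzymes tested 0 were called, Hsd17b12 being highest at 131 FPKM in control. Of 9 relatives of Sgk1, Tsc22d3 and Zbtb16 tested 0 were called, with a median of -0.34 at 1 h. The most abundant was Tsc22d1, at 155, 151 and 485 FPKM in control and 95.3, 157 and 186 FPKM at 1 h (limma adjusted p = 0.566). Its high value was in control replicate 3.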

How the data were processed

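The table deposited by the authors gives FPKM per gene and library (per the file headers), with the authors' log2 fold changes, p-values and q-values from DEGseq. Of tools, HISAT2 2.0.4, RSEM 1.2.12 and Bowtie2 2.2.5 appear, without roles, in the submitters' processing notes, which give mm10 as the build. How reads were counted, and with which strand setting, is not given there. Values were present for 17559 genes. Limma 3.58.1 in R 4.3.3 was run on log2(FPKM + 1) with a variance trend, all 9 libraries and 3 group means (two-sided, Benjamini-Hochberg over 11460 genes, 6 residual degrees of freedom), and was tested on simulated data. With 3 libraries against 3 an exact permutation test cannot go below 0.1, so none was used. Depth was estimated from the steps of low values in transcripts of 400 to 1200 bases: 88.0% to 91.7% fell no more than 0.2 reads from a whole number, against 40% for evenly spread values. Read numbers assume the longest transcript and are approximate. Replicate numbers were checked for pairing by correlating deviations from group means: same-numbered control and 1 h libraries gave 0.194, 0.149 and 0.262. For 6 h and control they were -0.178, 0.041 and 0.014, and for 6 h and 1 h -0.269, -0.104 and -0.35. Each 1 h library was most like the control of its own number, and controls 1 and 3 most like their 1 h namesakes. Control 2 was most like 1 h replicate 1. Such low values cannot decide whether the numbers pair control with 1 h, because the labels tie no number to an animal or culture. The main fit used no pairing, so its SEs, intervals and p-values take the libraries as unpaired. A replicate block was run as an alternative. Members and lists were chosen with earlier results of these data known. Named genes were the 9 members, called members of each list or else its most abundant gene (for 1 list not reported here), the 3 genes most like each tested member, and the 2 highest markers of each cell type. The other cell type markers with values, and which nearest genes are shown with levels, were chosen after values were seen. So were Hsp90aa1, Hsp90ab1, Hspa8, Gadd45g, Errfi1, Cebpb, Sesn1, Fkbp5, Per1, Klf9, A830082K12Rik and B130024G19Rik. Alternatives covered scaling, pseudocount, filter, spread prior, block and left-out libraries.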

Additional observations from a re-analysis of the deposited data

How the results depend on the processing

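No gene of the 8 was called in any of 456 limma fits (24 results, 19 alternatives each), the smallest adjusted p being 0.139, and 17 of the 24 log2 changes kept their direction throughout. The 3 alternatives added after seeing the data were a block on only the 2 groups compared, a robust prior and leaving out control replicate 3 with 6 h replicate 2. Genes called at 1 h, 18 as reported, numbered 31 after quantile normalization, 10 with no filter, 47 with only the 2 groups fitted, and 8 to 52 when 1 library was left out (52 without 6 h replicate 2). At 6 h 0 to 25 were called with 1 library left out, 25 of them without 6 h replicate 1. For 6 h against 1 h, 32 as reported, there were 55 after quantile normalization and 8 to 104 with 1 library left out (104 without 6 h replicate 1). With a replicate block the counts were 15, 0 and 23, and with the block and only the 2 groups 42, 0 and 8; the block changed no call of the 8 genes. With control replicate 3 and 6 h replicate 2 both left out, direction turned for Esr1 at 1 h (-0.145), Zbtb16 at 6 h (-0.223) and Esr1 between 6 h and 1 h (0.219). Leaving out 1 library gave -0.145 to 0.582 for Esr1 at 1 h, -0.178 to 0.549 for Esr1 at 6 h, -0.459 to 0.472 for Sgk1 at 6 h and -0.096 to 0.368 for Zbtb16 at 6 h. For 6 h against 1 h it gave -0.205 to 0.219 for Esr1, -0.352 to 0.234 for Pgr and -0.165 to 0.122 for Tsc22d3. The cause of these shifts was not tested. Low read numbers limit Nr3c2, Nr2f1 and Zbtb16.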
